A study of Mus musculus with 30 samples.

Results

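MBD2aΔGR is MBD2a without its stretch of glycine and arginine residues. The comparison described here sets the 3 MBD2aΔGR libraries, in columns s16, s17 and s18, against the 3 WT libraries, in columns s01, s02 and s03, across all genes. These 6 libraries belong to 24 poly(A) RNA-seq libraries of neuronal progenitor cells (NPCs) made in vitro from mouse embryonic stem cells (ESCs), and the series holds 30 samples in all. The MBD2aΔGR cells carry an *Mbd3* knock-out (KO) and express the biotin-tagged construct from the strong CAG promoter at a single defined genomic site, and their libraries come from individually derived clones. The WT cells carry neither the *Mbd3* KO nor a construct. For reference, some values are given for *Mbd3* KO cells without a construct and for *Mbd3* KO cells with MBD3a, MBD3ΔMBD (MBD3a without its methyl-CpG-binding domain), full-length MBD2a, MBD2aR181C (MBD2a with a point mutation, which the column headers number differently) or MBD2t (a short MBD2 isoform, for which the libraries are repeats of a single clone).

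MBD2 and MBD3 are mutually exclusive subunits of NuRD, a complex that joins histone deacetylation to nucleosome remodelling and represses genes when cells change fate. During differentiation of ESCs, cultures can hold cells of other lineages beside neural ones. Mesenchymal cells build a fibrillar matrix of collagens and microfibrils, endothelial cells line vessels, and extraembryonic endoderm secretes apolipoproteins and basement membrane. In bulk RNA, fewer cells of a type and less RNA per cell cannot be told apart.

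Markers of the labelled cell type were present in both groups. *Pax6*, a transcription factor of neural progenitors, had 142, 168 and 197 CPM (read counts scaled to the size of the library) in WT and 167, 151 and 148 CPM in MBD2aΔGR, and *Nes*, an intermediate filament of progenitors, had 340, 290 and 215 CPM in WT and 315, 256 and 163 CPM in MBD2aΔGR. The groups overlapped for both genes. The mean log2 CPM of 36 tested neural progenitor genes was 5.568, 5.636 and 5.271 in WT and 5.535, 5.051 and 4.403 in MBD2aΔGR. Of these 36 genes, 30 had a lower fitted level in MBD2aΔGR. *Mbd3* had 155, 149 and 157 CPM in WT and 45.8, 42.0 and 86.5 CPM in MBD2aΔGR, and *Mbd2* had 40.8, 50.5 and 43.9 CPM in WT and 280, 451 and 700 CPM in MBD2aΔGR, so that both genes moved as the labels give them. Totals were 37881563 to 42049423 counts in WT and 33120415 to 38994029 in MBD2aΔGR, and 3 counts correspond to 0.073 to 0.0921 CPM in these libraries, a floor for counting error only. The spread between libraries was wide in both groups. The median SD of log2 CPM was 0.314 in MBD2aΔGR and 0.29 in WT, and the libraries with the lowest quality weights in the voom fit of limma were s18 at 0.133 and the WT library s03 at 0.165. Results are therefore given with and without s18.

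The fold changes of genes lower in MBD2aΔGR than in WT stayed close to their size without s18, those of genes higher in MBD2aΔGR mostly did not, and most calls in both directions were lost. Called genes have a Benjamini-Hochberg adjusted p-value under 0.05 in the edgeR quasi-likelihood test and a log2 fold change beyond 1 in size. With all libraries in the fit, 856 of 16582 genes (5.16%) were called, 446 (2.69%) higher and 410 (2.47%) lower. Without s18, 121 of 16763 genes (0.722%) were called, 22 (0.131%) higher and 99 (0.591%) lower. Of the genes called lower, 93 (22.7%) were also called without s18, and their median log2 fold change was −1.85 with and −1.70 without that library over all 410. Of the genes called higher, 19 (4.26%) were also called without s18, and the median over all 446 went from 1.96 to 0.859. The s18 library was the highest of the 6 in 396 (88.8%) of the genes called higher, and lay over 2-fold above both other MBD2aΔGR libraries in 315 (70.6%), against 1258 (7.59%) of all genes tested. The 2 groups did not overlap in 373 (91%) of the genes called lower and in 291 (65.2%) of those called higher. Over all genes tested, 18.8% did not overlap, 9.32% with MBD2aΔGR higher and 9.53% with MBD2aΔGR lower.

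**Figure D1:**
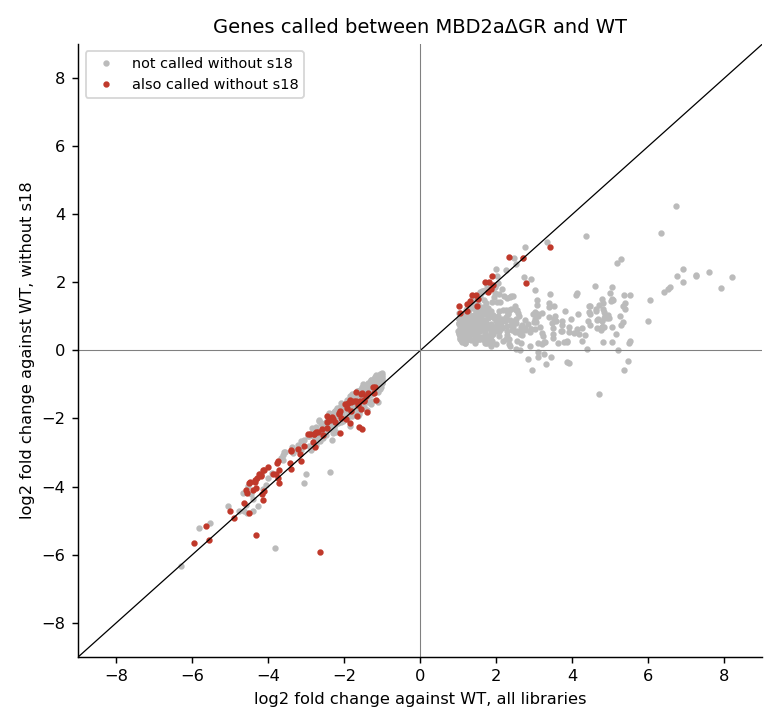
Each point is a gene called between MBD2aΔGR and WT, with its log2 fold change in the fit of all libraries on the x axis and in the fit without s18 on the y axis; the diagonal marks equal values and red points were called in both fits. Genes lower in MBD2aΔGR lie along the diagonal (median −1.85 and −1.70), while genes higher in it fall below the diagonal (median 1.96 and 0.859).

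The call counts also moved with other libraries. Leaving out WT library s01 left 182 calls and leaving out s02 left 252, while leaving out s03 gave 1121, s16 1914 and s17 836. In the fit of the 6 libraries alone, 13 of 15327 genes (0.0848%) were called, 12 of them (0.0783%) lower in MBD2aΔGR and 1 (0.00652%), *Mbd2*, higher. Without s18 that fit called 0 of 15496 genes in the edgeR test, and 1393 had an unadjusted p under 0.05. The 12 genes called lower with s18 in that fit were *Adgrl4*, *Bgn*, *Cdh5*, *Cnrip1*, *Col26a1*, *Cts8*, *Ddx3y*, *Mfap2*, *Mmrn2*, *Rgs4*, *Stab1* and *Twist2*. Across all 6 fits of the 24 libraries that leave out 1 of these libraries, 88 genes were called lower every time and 10 higher every time. The groups did not overlap in any of the 88, which follows in part from how they were chosen.

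**Figure D2:**
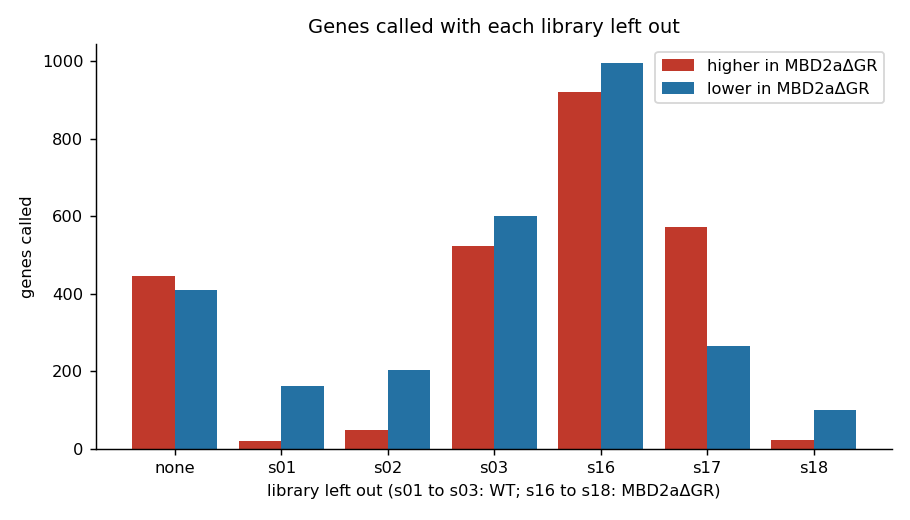
Bars give the number of genes called higher (red) and lower (blue) in MBD2aΔGR than in WT with all libraries and with each library left out in turn. Without s18, 22 genes were higher and 99 lower; without s16, 920 were higher and 994 lower.

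Part of the endothelial genes were lower in MBD2aΔGR. Of 29 tested members of the endothelial and blood list, 11 were called lower, beside 2.47% of all genes, 1 was called higher and 17 were not called. Their median log2 fold change was −0.77, against −0.01 over all genes tested. Without s18, 6 were called lower and none higher, and the median was −1.03. Without s01 or s02 7 were called lower, and in the fit of the 6 libraries alone 1 was, *Cdh5*. The genes called lower were *Cdh5*, *Pecam1*, *Cldn5* and *Esam*, which encode junction and adhesion proteins of endothelium, *Emcn* and *Cd34*, which encode surface sialomucins, *Tie1*, a receptor, *Vwf*, a clotting factor, and the transcription factors *Sox18*, *Fli1* and *Lmo2*. The gene called higher was *Cd68*, a macrophage glycoprotein, with 17.6 CPM in s18 and 0.42 as its log2 fold change without that library.

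*Cdh5* (VE-cadherin; mm9 chr8:106625525-106668402) had 23.7, 36.1 and 23.3 CPM in WT and 2.83, 2.77 and 2.08 CPM in MBD2aΔGR. All 3 MBD2aΔGR libraries lay far below the WT range. The log2 fold change was −3.44 ± 0.47 (SE, n = 3 and 3, adjusted p = 0.000644), it was −3.30 without s18 (adjusted p = 0.00965), and the gene was called in the fit of the 6 libraries alone (adjusted p = 0.0424).

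*Emcn* (endomucin; mm9 chr3:137004031-137095149) had 3.87, 5.25 and 6.23 CPM in WT and 0.307, 0.476 and 0.0554 CPM in MBD2aΔGR, of which the last is below the level of 3 counts. Its log2 fold change without s18 was −3.69 (adjusted p = 0.00505). *Sox18*, a transcription factor of vessel and lymphatic development, had 4.83, 5.67 and 8.23 CPM in WT and 1.11, 1.19 and 0.249 CPM in MBD2aΔGR. The groups were apart in both genes, with s18 the lowest library. *Fli1*, an ETS factor, had 1.72, 2.48 and 2.78 CPM in WT and 0.276, 0.298 and 0.111 CPM in MBD2aΔGR, with a log2 fold change of −3.35 ± 0.69 (SE, n = 3 and 3, adjusted p = 0.0105). Not every member moved. *Erg*, a second ETS factor of endothelium, had 3.57, 2.94 and 3.41 CPM in WT and 3.96, 9.71 and 2.60 CPM in MBD2aΔGR, and *Tek* had 1.45 to 1.59 CPM in WT and 0.829 to 2.44 CPM in MBD2aΔGR. *Flt1*, a VEGF receptor, had 14.8, 21.3 and 12 CPM in WT and 18.5, 9.47 and 133 CPM in MBD2aΔGR, where s18 alone was high.

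Of the 11 endothelial genes called lower, 4 have a promoter in the RefSeq table used here (GRCm38.p6), and the 250 bases before the start are shown for *Cd34* (chr1:194938571-194938820, plus strand) and *Emcn* (chr3:137340828-137341077, plus strand), because these genes fell together and hold the motif searched. Capitals mark CAGGAAG, a sequence of the ETS type, or CTTCCTG, the same sequence on the other strand.
Cd34: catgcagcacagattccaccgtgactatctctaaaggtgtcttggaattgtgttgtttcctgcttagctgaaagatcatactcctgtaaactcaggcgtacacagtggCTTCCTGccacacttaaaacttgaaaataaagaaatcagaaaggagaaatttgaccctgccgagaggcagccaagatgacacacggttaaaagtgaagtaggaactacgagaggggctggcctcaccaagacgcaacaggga
Emcn: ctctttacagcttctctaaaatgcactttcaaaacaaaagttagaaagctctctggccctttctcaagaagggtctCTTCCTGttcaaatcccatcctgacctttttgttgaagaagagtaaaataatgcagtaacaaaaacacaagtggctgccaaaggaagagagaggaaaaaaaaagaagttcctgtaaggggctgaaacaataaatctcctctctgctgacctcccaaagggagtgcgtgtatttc
The motif was in 2 of these 4 promoters, was not in those of *Tie1* and *Cldn5*, and was in 10.8% of all 32851 promoters of the same length. A match describes letters and not a bound site.

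Mesenchymal matrix genes were lower in MBD2aΔGR in part. Of 48 tested members, 12 were called lower, beside 2.47% of all genes, 3 higher, beside 2.69%, and 33 were not called. The median log2 fold change of the list was −0.73. Without s18, 4 were called lower and none higher, with a median of −0.77. These 4 were *Col1a1*, *Mfap2*, *Bgn* and *Loxl1*. The mean log2 CPM of the list was 2.84 to 3.64 in WT and 1.99 to 2.38 in MBD2aΔGR, so the groups did not overlap. The summed CPM of the list overlapped, with 1507 to 2416 in WT, 1791 in s16, 1773 in s17 and 6722 in s18. *Sparc*, a matrix glycoprotein of basement membranes too, had 3607 CPM in s18 beside 225 and 216 CPM in s16 and s17 and 202 to 246 CPM in WT.

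*Mfap2*, which encodes a microfibril protein (mm9 chr4:140566333-140571899), had 23.1, 16.9 and 13.9 CPM in WT and 0.799, 0.387 and 0.609 CPM in MBD2aΔGR. The 3 MBD2aΔGR libraries were close to each other, and s18 lay between the other two. Its log2 fold change was −4.90 ± 0.35 (SE, n = 3 and 3, adjusted p = 1.58e-07) with all libraries and −4.92 (adjusted p = 7.38e-06) without s18. *Bgn*, the proteoglycan biglycan, had 4.88, 5.20 and 2.87 CPM in WT and 0.184, 0.268 and 0.249 CPM in MBD2aΔGR. *Loxl1*, which cross-links elastin, had 11.1, 11.8 and 8.98 CPM in WT and 1.75, 2.50 and 1.05 CPM in MBD2aΔGR. Both genes were called with and without s18.

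The fibrillar collagens differed among themselves. *Col1a1*, the main chain of type I collagen, had 61.8, 34.2 and 12.4 CPM in WT and 0.952, 1.76 and 0.665 CPM in MBD2aΔGR. *Col1a2*, its partner chain, had 89.8, 39.8 and 20.7 CPM in WT and 15.0, 24.3 and 8.42 CPM in MBD2aΔGR, so the groups overlapped and the gene was not called (log2 fold change −1.66 ± 0.83, SE, n = 3 and 3, adjusted p = 0.213). *Col3a1* had 236, 126 and 62.0 CPM in WT and 8.32, 15.0 and 4.79 CPM in MBD2aΔGR, and its adjusted p was 0.0196 with and 0.128 without s18. *Fbn1*, the fibrillin of microfibrils, had 26.2, 23.7 and 12.8 CPM in WT and 23.4, 25.8 and 9.94 CPM in MBD2aΔGR. *Lum*, a small proteoglycan, had 1.27 to 4.83 CPM in WT and 0 to 0.0893 CPM in MBD2aΔGR, where no library was above 3 counts. *Col1a1* overlaps *Gm17329* on the opposite strand, and the strand setting of the counting is not given in the sources used here. The same holds for reads of *Pax6*, *Cnrip1*, *Stab1*, *Pecam1*, *Cd34*, *Lmo2*, *Fbn1*, *Ddr2*, *Actc1*, *Itga8*, *Tagln*, *Acot3*, *Hvcn1*, *Cubn*, *Col4a1*, *Lamb1*, *S100g*, *Rbfox3*, *Map2*, *Hes5*, *Tdh*, *Lin28a*, *Sall4*, *Nos3*, *Esm1*, *Ecscr*, *Scx* and *Wnt7b*, which also overlap a gene on the opposite strand.

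Transcription factors and receptors of mesenchyme were also lower in part. Of 41 tested members, 13 were called lower, beside 2.47% of all genes, 2 higher, beside 2.69%, and 26 were not called. Without s18 7 were called lower and none higher (also 7 lower without s01, and 1 in the fit of the 6 libraries alone). The median log2 fold change was −0.55 with and −0.87 without s18. *Twist2*, a bHLH repressor, had 6.55, 5.17 and 3.60 CPM in WT and 0.369, 0.447 and 0.277 CPM in MBD2aΔGR. *Ddr2*, a collagen receptor, had 17.1, 9.71 and 4.80 CPM in WT and 0.369, 0.566 and 0.332 CPM in MBD2aΔGR. *Thy1*, a surface glycoprotein of fibroblasts, had 4.88, 3.58 and 2.29 CPM in WT and 0.307, 0.328 and 0.360 CPM in MBD2aΔGR. In each of these genes all MBD2aΔGR libraries, s18 included, lay below the lowest WT library. *Twist1*, the paralog of *Twist2*, had 18.4, 14 and 8.72 CPM in WT and 6.21, 9.17 and 6.95 CPM in MBD2aΔGR and was not called (log2 fold change −0.88 ± 0.43, SE, n = 3 and 3, adjusted p = 0.198). *Snai1*, a repressor of epithelial genes, turned with s18, with 5.75 to 8.39 CPM in WT, 2.33 and 1.49 CPM in s16 and s17 and 56.7 CPM in s18. Its log2 fold change was 1.55 with all libraries (adjusted p = 0.211) and −1.85 without s18 (adjusted p = 0.0402). *Pdgfra* likewise had 188 CPM in s18, beside 6.76 and 6.52 CPM in the other MBD2aΔGR libraries and 4.19 to 12.1 CPM in WT.

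A few contractile genes were lower in MBD2aΔGR. Of 33 tested members, 4 were called lower, beside 2.47% of all genes, none was called higher and 29 were not called, and the median log2 fold change of the list was −0.03. Without s18 2 were called lower. In 8 of the 33 members the groups did not overlap and MBD2aΔGR was lower, beside 9.53% of all genes tested. The mean log2 CPM of the list was 3.45 to 3.69 in WT and 2.90 to 3.32 in MBD2aΔGR. *Acta2*, smooth muscle actin, had 19.8, 13.1 and 5.58 CPM in WT and 0.584, 0.804 and 0.249 CPM in MBD2aΔGR, and *Tpm2*, a tropomyosin, had 23.5, 26.3 and 34.0 CPM in WT and 8.72, 11.5 and 9.92 CPM in MBD2aΔGR. Both genes were called with and without s18. *Actc1* and *Itga8* were called with all libraries only. *Tagln* had 15.3 to 19.9 CPM in WT and 5.35 to 21.4 CPM in MBD2aΔGR, and *Myl9* had 8.69 to 9.85 CPM in WT and 7.39 to 14.03 CPM in MBD2aΔGR, so that these groups overlapped.

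**Figure D3:**
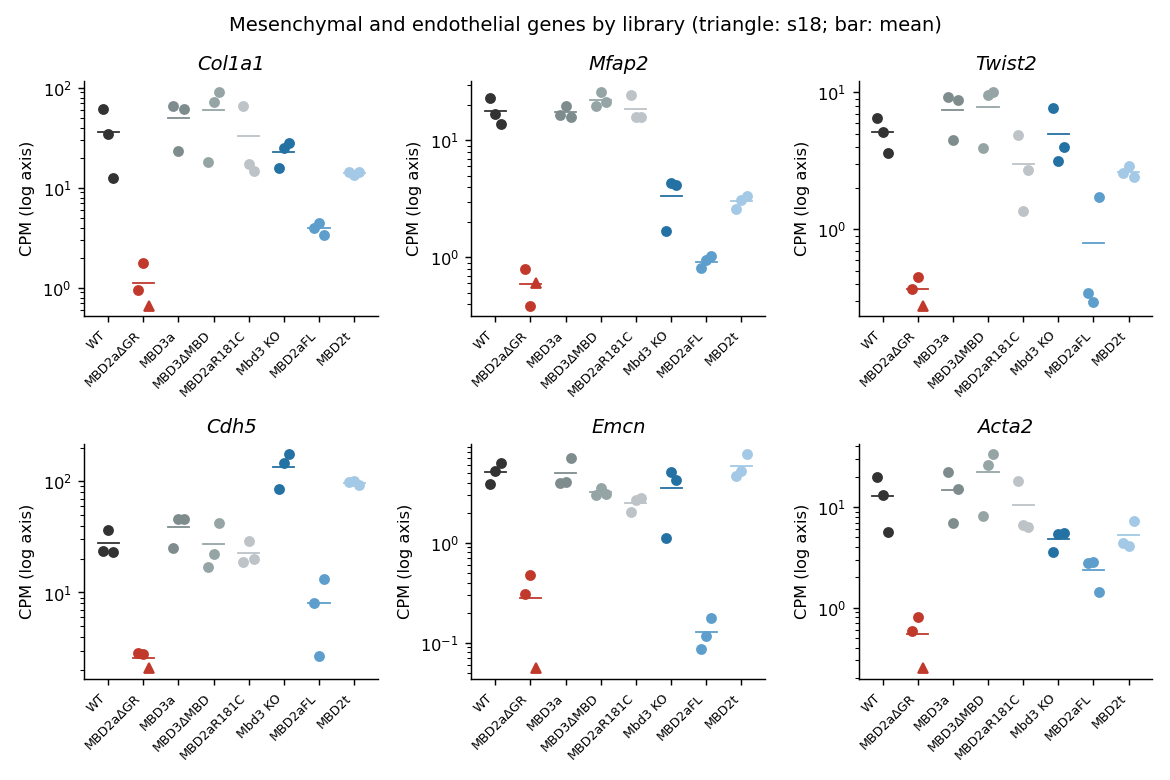
Each point is a library, with its CPM on a log axis, for 6 genes and 8 lines; the triangle marks s18 and bars give the mean of the 3 libraries. The MBD2aΔGR libraries lie below all WT libraries in each panel, for example at 2.08 to 2.83 CPM against 23.3 to 36.1 CPM for *Cdh5*, and the MBD2aFL libraries (full-length MBD2a) lie nearest to them in *Mfap2*, *Twist2*, *Cdh5* and *Emcn*.

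Many of the genes called lower than WT were also low against 3 other constructs. Against the mean of MBD3a, MBD3ΔMBD and MBD2aR181C, 1491 of 16582 genes (8.99%) were called, 587 (3.54%) lower in MBD2aΔGR and 904 (5.45%) higher. This comparison uses no WT library as control, but it shares the MBD2aΔGR libraries with the comparison against WT. Without s18, 253 (1.51%) were called, 162 (0.966%) lower and 91 (0.543%) higher. The 88 genes called lower than WT with each library left out were chosen on the MBD2aΔGR libraries that this comparison uses again. Their share here thus follows in part from that choice. Of these 88, 81 were called lower than the mean of the 3 constructs. *Uty* and *Ddx3y*, of the Y chromosome, and *Crygd*, *Cryge*, *Afap1l1*, *Tcim* and *Upk3a* were the 7 that were not. The mean of these 3 constructs was called different from WT in 3 genes (0.0181%), all lower than WT. Of the endothelial and blood genes 12 were called lower and 2 higher than in the 3 constructs, of the mesenchymal matrix genes 16 lower and 5 higher, and of the mesenchymal factors and receptors 15 lower and 3 higher. Without s18 the genes called lower numbered 9, 7 and 12. *Mfap2* was lower by a log2 fold change of −5.01 (adjusted p = 3.54e-08), *Cdh5* by −3.50 (adjusted p = 0.000165) and *Twist2* by −3.95 (adjusted p = 0.000597).

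Full-length MBD2a without the mutation had low levels of several of these genes as well. In the 3 libraries of that line *Mfap2* had 0.806 to 1.02 CPM, *Cdh5* 2.68 to 13.2 CPM, *Twist2* 0.295 to 1.73 CPM, *Emcn* 0.0863 to 0.178 CPM and *Col1a1* 3.42 to 4.42 CPM. *Bgn* was not low there, with 4.06 to 11.2 CPM. The RNA level of *Mbd2* itself differed between the lines. It was 67.0 to 87.2 CPM for full-length MBD2a, 280 to 700 CPM for MBD2aΔGR and 252.9 to 325.5 CPM for MBD2aR181C. At the protein level in ESCs, the study reports equal amounts of full-length MBD2a and MBD2aΔGR by western blot. In MBD2aR181C *Mfap2* had 15.7 to 24.5 CPM and *Cdh5* 18.6 to 28.8 CPM, which overlaps the WT range. The mean log2 CPM of the mesenchymal factors and receptors was 1.788 to 2.671 in MBD2aR181C and 1.482 to 2.192 in full-length MBD2a. Both overlap 1.386 to 1.855 in MBD2aΔGR and 2.117 to 2.909 in WT. The mesenchymal matrix mean was 2.675 to 3.441 in MBD2aR181C and 2.433 to 2.943 in full-length MBD2a. These lay above 1.992 to 2.378 in MBD2aΔGR. In *Mbd3* KO cells *Cdh5* had 85.2 to 174 CPM, above WT, and *Mfap2* had 1.69 to 4.29 CPM, below it. These values are set side by side, and MBD2aΔGR was not tested against full-length MBD2a. Over all genes tested, 142 (0.856%) were lower in every MBD2aΔGR library than in each of the 21 libraries of the other lines. They included 8 of 48 mesenchymal matrix genes, 6 of 41 mesenchymal factors and receptors, 4 of 33 contractile genes, 3 of 29 endothelial and blood genes and 3 of 18 trophoblast genes, with *Col1a1*, *Mfap2*, *Bgn*, *Loxl1* and *Thy1* among them.

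Genes higher in MBD2aΔGR with and without s18 were few. Beside *Mbd2*, the genes that follow met the rule for named genes. *Dmrta2*, a factor of the dorsal forebrain (mm9 chr4:109650658-109656292), had 8.37, 7.46 and 8.08 CPM in WT and 16.5, 19 and 20.2 CPM in MBD2aΔGR. *En2*, a factor of the midbrain and hindbrain, had 2.09 to 2.17 CPM in WT and 8.42, 4.74 and 4.46 CPM in MBD2aΔGR, and *Sp5*, a target of Wnt signalling, had 2.95 to 3.71 CPM in WT and 12.2, 8.01 and 5.18 CPM in MBD2aΔGR. In *En2* and *Sp5* s16 was the highest library and s18 the lowest of MBD2aΔGR. *Nefh*, a neurofilament chain, had 1.88, 2.81 and 2.95 CPM in WT and 6.79, 7.74 and 7.48 CPM in MBD2aΔGR. The others were *Prss16*, *Gm13889*, *Acot3*, *Rasd2* and *Hvcn1*, with log2 fold changes of 1.03 to 1.88. The log2 fold change of *Dmrta2* was 1.22 ± 0.21 (SE, n = 3 and 3, adjusted p = 0.0032) with all libraries and 1.15 (adjusted p = 0.0224) without s18. *Dmrta2* was higher in each MBD2aΔGR library than in each of the 21 libraries of the other lines, as were 30 of all genes tested (0.181%).

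Genes of the extraembryonic endoderm were high in s18. Of 30 tested members, 21 were called higher with all libraries, beside 2.69% of all genes, and none without s18. Without WT library s01 1 was called higher, and without s02 2. The median log2 fold change went from 2.54 to 0.54 without s18. The summed CPM of the list was 208.8 to 267.4 in WT, 395.3 in s16, 374.9 in s17 and 2841 in s18. The other MBD2aΔGR libraries thus lay above the WT range in sum, though no member was called. The sum was also above WT in full-length MBD2a, at 416.8 to 1122, and in *Mbd3* KO cells, at 430.9 to 517.5. In MBD2aR181C it was 173.5 to 284.8. *Gata4*, a master factor of this lineage, had 4.88, 7.04 and 8.21 CPM in WT and 12.9, 12.8 and 291 CPM in MBD2aΔGR. *Sox17* had 18.5, 25.8 and 27.9 CPM in WT and 63.9, 42.5 and 135 CPM in MBD2aΔGR, with a log2 fold change of 1.14 (adjusted p = 0.256) without s18. *Cubn*, an endocytic receptor, had 1.18, 3.08 and 2.80 CPM in WT and 15.2, 14.9 and 244 CPM in MBD2aΔGR, with a log2 fold change of 2.67 (adjusted p = 0.179) without s18. *Foxa1* differed from these, with 8.05 to 16.4 CPM in WT and 26.4, 28.9 and 26.5 CPM in MBD2aΔGR, where s18 did not stand apart (log2 fold change 1.24 ± 0.43, SE, n = 3 and 3, adjusted p = 0.0762). Against the mean of the 3 other constructs, 23 members were called higher with all libraries, beside 5.45% of all genes in that comparison. Without s18 4 were, beside 0.543%.

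Basement membrane and plasma protein genes had the same layout. Of 20 tested members of the parietal endoderm and basement membrane list, 9 were called higher with all libraries, beside 2.69% of all genes. None was called without s18 or without WT library s01, and 1 was called without s02. The median went from 1.35 to 0.07 without s18. *Col4a1*, a chain of type IV collagen, had 267, 376 and 309 CPM in WT, 672 and 491 CPM in s16 and s17 and 10060 CPM in s18. *Lamb1*, a laminin chain, had 67.8 to 103 CPM in WT, 137 and 178 CPM in s16 and s17 and 2214 CPM in s18. The summed CPM of the list was 1791 to 2466 in WT, 2852 in s16, 2599 in s17 and 31400 in s18. It was 3129 to 10110 in full-length MBD2a, 6299 to 7917 in *Mbd3* KO cells and 1591 to 2525 in MBD2aR181C. Of 18 tested plasma protein genes, 9 were called higher with all libraries, beside the same 2.69%. None was called without s18, nor without WT library s01 or s02. Their summed CPM was 9.77 to 21.9 in WT, 35.1 in s16, 52.8 in s17 and 336.4 in s18. It was 74.4 to 175 in full-length MBD2a, 116.9 to 138.4 in *Mbd3* KO cells and 12 to 52.2 in MBD2aR181C.

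The 10 called genes in which s18 stood furthest above the other MBD2aΔGR libraries were *Gkn2*, *Gkn1*, *Spp2*, *Afp*, *Apoc2*, *S100g*, *Ptk6*, *Aqp8*, *Gsta1* and *Apoa1*. They include the gastrokines of the stomach lining, fetal serum proteins and a water channel. *Gkn2* had 0 to 0.122 CPM in WT, 0.276 and 0.179 CPM in s16 and s17 and 45.8 CPM in s18. *Afp* had 0.0805, 0.248 and 3.87 CPM in WT, 1.32 and 0.625 CPM in s16 and s17 and 176 CPM in s18. *Apoa1* had 0.0537, 0.908 and 5.11 CPM in WT, 3.65 and 1.37 CPM in s16 and s17 and 280 CPM in s18. In *Afp* and *Apoa1* the WT library s03 was above both s16 and s17. None of the 10 genes was called without s18. In the 21 libraries of the other lines *Afp* reached 18.8 CPM and *Apoa1* 72.5 CPM. Among the MBD2aΔGR libraries these 10 genes were chosen as high in a single clone, and the part of endoderm-like cells in the culture was not tested.

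**Figure D4:**
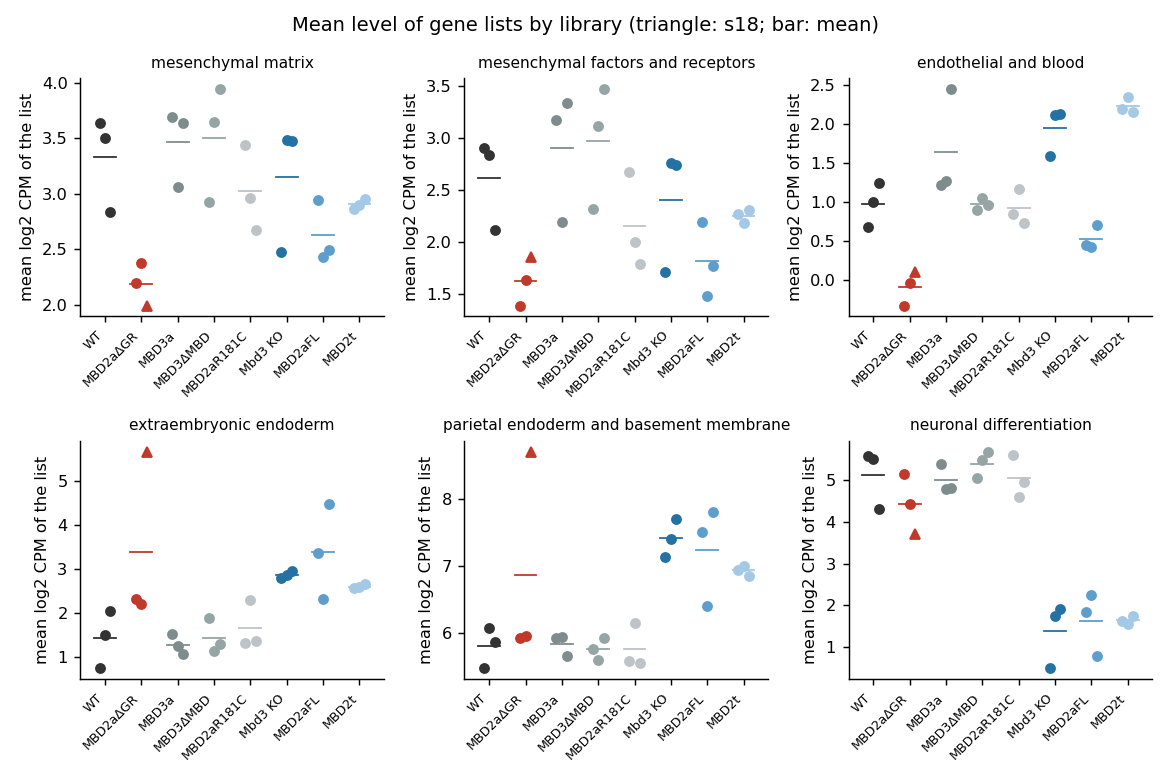
Each point is the mean log2 CPM of a gene list in a library, for 6 lists and 8 lines; the triangle marks s18 and bars give the mean of the 3 libraries. The 3 lists in the upper row are lower in the MBD2aΔGR libraries than in all WT libraries, while extraembryonic and parietal endoderm genes are high in s18 (5.66 and 8.71).

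Neural and pluripotency genes spread within both groups. The mean log2 CPM of the 63 tested neuronal differentiation genes was 5.57, 5.51 and 4.30 in WT and 5.14, 4.43 and 3.71 in MBD2aΔGR, so the WT library s03 lay below s16 and s17. Of these genes 1 was called lower, *Rbfox3*, beside 2.47% of all genes, and 2 higher, *Nefh* and the motor neuron factor *Isl1*, beside 2.69%. Their median log2 fold change was −0.84, or −0.51 without s18. Members with a lower fitted level in MBD2aΔGR numbered 52 of 63. The count called lower was 24 without s16, 12 without WT library s03 and 0 when any other of the 6 libraries was left out, and without s18 1 gene was called higher. Over all genes tested, 994 of 16801 were called lower without s16 and 599 of 16793 without s03. *Map2*, a microtubule protein of neurons, had 725, 644 and 237 CPM in WT and 416, 225 and 74.7 CPM in MBD2aΔGR, and *Neurog1*, a proneural factor, had 125, 176 and 100 CPM in WT and 113, 80.5 and 49.5 CPM in MBD2aΔGR. In *Mbd3* KO cells, compared with the same WT libraries, 5609 genes (33.8%) were called, and the median of the neuronal list was −4.13 with 55 of 63 genes called lower, beside 14.2% of all genes. Of 36 neural progenitor genes 4 were called lower than WT in MBD2aΔGR with all libraries (*Dbx2*, *Dll3*, *Hes5* and *Bcan*), beside 2.47% of all genes. None was without s18 and 12 were without s16, beside the 994 of 16801 genes called lower in that fit.

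All 27 pluripotency genes had a higher fitted level in MBD2aΔGR, and 4 were called, *Tdh*, *Klf4*, *Lin28a* and *Sall4*, beside 2.69% of all genes. None of them was called without s18, nor without WT library s01 or s02. The median was 1.32 with and 0.90 without s18. *Pou5f1* had 5.26, 7.15 and 38.7 CPM in WT and 14.8, 39.3 and 50.2 CPM in MBD2aΔGR, and *Nanog* had 0.805, 3.33 and 30.6 CPM in WT and 6.11, 27.6 and 29.0 CPM in MBD2aΔGR. The WT library s03 lay within the MBD2aΔGR range or above it in both. *Klf4* had 5.99, 9.19 and 7.60 CPM in WT and 13.2, 14 and 152 CPM in MBD2aΔGR. Of 48 interferon response genes none was called in the edgeR test of all libraries or without s18, and their median was 0.31, beside 2.96 in *Mbd3* KO.

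**Figure D5:**
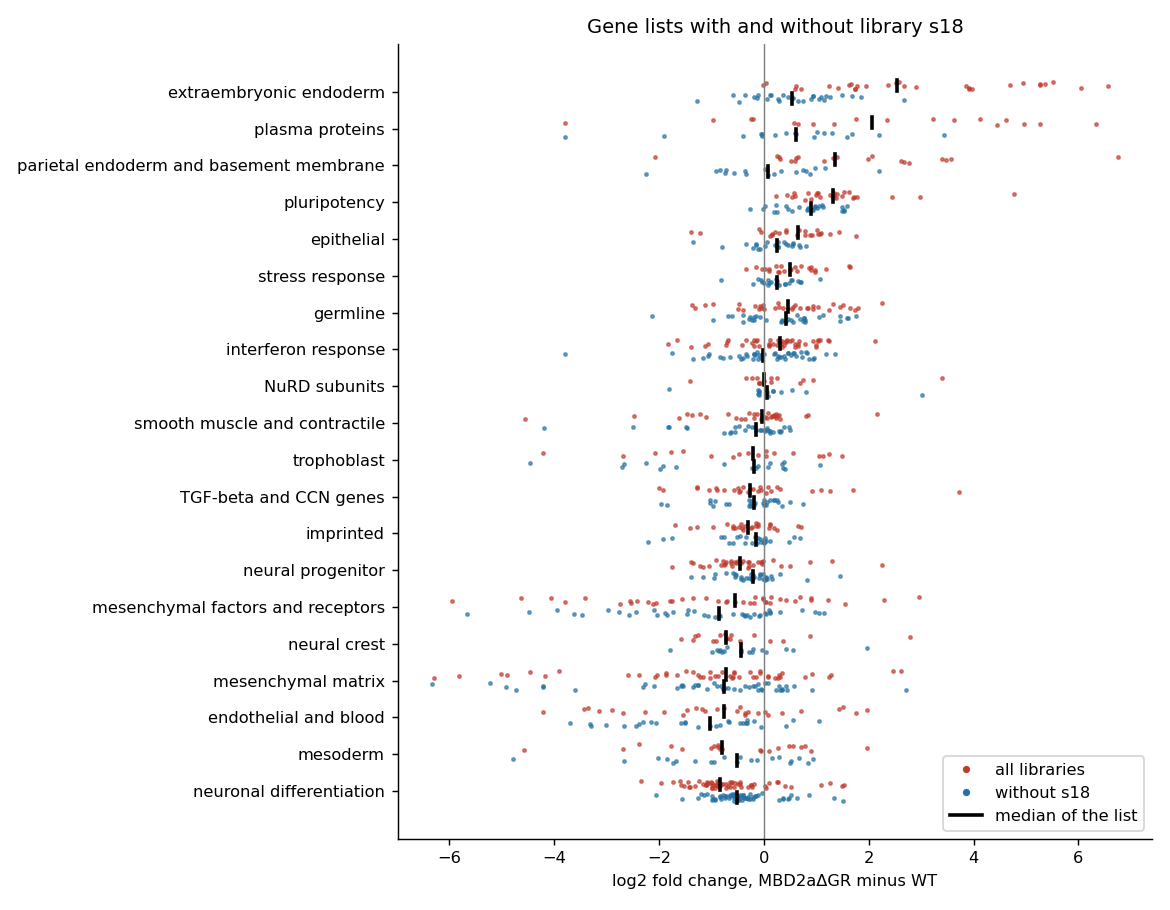
Points are the log2 fold changes of list members between MBD2aΔGR and WT, in red with all libraries and in blue without s18, and black ticks mark the median of each list. The medians of extraembryonic endoderm genes (2.54 and 0.54) move with s18, while those of endothelial and blood genes (−0.77 and −1.03) and mesenchymal matrix genes (−0.73 and −0.77) stay below 0.

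Genes of the Y chromosome were low in MBD2aΔGR and in other construct lines. *Uty* had 17.6, 13.9 and 9.25 CPM in WT and 0.983, 1.73 and 0.277 CPM in MBD2aΔGR, and *Ddx3y* had 7.49, 9.60 and 4.94 CPM in WT and 0.430, 0.447 and 0.222 CPM in MBD2aΔGR. In MBD3ΔMBD *Uty* had 0.115 to 0.560 CPM and in MBD2aR181C 0.456 to 0.786 CPM. The MBD3a libraries differed among themselves. Their median log2 difference from the WT mean over 4 Y chromosome genes was −0.226 in s07, −2.287 in s08 and −3.99 in s09. Against the mean of MBD3a, MBD3ΔMBD and MBD2aR181C the log2 fold change of *Uty* was 0.01 (adjusted p = 0.994) and that of *Ddx3y* −1.23 (adjusted p = 0.310). For the autosomes and the X chromosome, the median difference from the WT mean lay between −0.11 and 0.098 on the log2 scale in each MBD2aΔGR library, with both limits in s18.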

How the data were processed

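Poly(A) RNA-seq of NPCs was analysed from the deposited table of counts. The authors prepared directional libraries, trimmed reads with Trim Galore, aligned them with STAR to mm9 with a GENCODE annotation, and made the deposited counts of reads per gene with QuasR, without normalization. Libraries were assigned to lines from the column names and labels. The column names carry no replicate number, so they could not be matched to the replicate numbers of the sample titles. The p-values measure the spread between clones or repeats within a line, pooled over the 8 lines of the fit. This pool includes MBD2t, whose libraries are repeats of a single clone. Its median SD of log2 CPM was 0.0726, beside 0.314 in MBD2aΔGR and 0.29 in WT. The columns of MBD2aR181C were taken as the only point mutant. The ChIP-seq samples were not analysed here.

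Of 25400 genes, 16582 passed filterByExpr with the line as group. A single edgeR 4.0.16 model (R 4.3.3) took all 24 libraries, TMM scaling and 1 coefficient per line, and contrasts were tested by quasi-likelihood with BH adjustment over every gene tested. DESeq2 1.42.0 and limma 3.58.1 served as alternatives. The fit was tested on simulated data. A call needed an adjusted p under 0.05 and a log2 fold change beyond 1 in size. CPM values use TMM-scaled library sizes, log2 CPM a prior count of 1, and SE is the absolute log2 fold change over the square root of F. Gene coordinates are from the mm9 annotation. Figures were drawn with matplotlib 3.10.9.

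Named genes were the largest changes, up to 12 a direction, among genes called with and without s18 that had a mean log2 CPM of 1 or more over the 6 libraries and did not overlap between the 2 lines, all 13 genes of the 6-library fit, list members with the largest changes, marker genes of the study, and the 10 genes with the largest excess in s18. The members and the 20 gene lists were chosen with earlier results of these data known. *Col1a2*, *Fbn1*, *Erg*, *Tek*, *Flt1*, *Twist1*, *Snai1*, *Pdgfra*, *Tagln*, *Myl9*, *Foxa1*, *Nes* and *Map2* were added after their values were seen. Other scalings, filters, tests and sets of libraries were tried. Of the genes that met the rule, 1 is not reported here.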

Additional observations from a re-analysis of the deposited data

How the results depend on the processing

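No paired analysis was possible because the deposited columns carry a library number but no replicate number. The 856 calls against WT (446 higher, 410 lower) stayed within 1.5 times under RLE, upper quartile and plain library size scaling, in DESeq2, in the legacy quasi-likelihood test, under both other filters and without the columns named R64C, where 733 to 1101 genes were called. With each library left out in turn, 121 to 1914 genes were called in all, 21 to 920 higher and 99 to 994 lower, with the lowest count without s18 (121) or, among genes higher, without WT library s01 (21), and the highest without s16. Without s01 and s02 the totals were 182 and 252. With only the 2 lines in the fit there were 13 calls (1 higher, 12 lower), and 0 of each without s18, where 1393 genes had an unadjusted p under 0.05. The legacy test of only the 2 lines, which was chosen after seeing the data, gave 2 calls (0 higher, 2 lower). Without MBD2t there were 472 calls (205 higher, 267 lower), and with only WT, MBD2aΔGR and the constructs MBD3a, MBD3ΔMBD and MBD2aR181C 193 (26 higher, 167 lower), so that the share of higher calls went from 52.1% to 43.4% and 13.5%. The voom fit with quality weights gave 1952 calls (882 higher, 1070 lower), and 436 without s18 (147 higher, 289 lower), the latter also chosen after seeing the data. The glmTreat test against a 2-fold change gave 54 calls (4 higher, 50 lower), and dropping the fold change threshold 1417 (822 higher, 595 lower). Against the other 3 constructs, 1491 genes were called, 253 to 2361 with an MBD2aΔGR library left out (253 without s18, 2361 without s16), 296 in glmTreat and 2907 without a fold change threshold.

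Mesenchymal matrix genes called lower were 12, and 4 to 13 with a library left out (4 without s18, 5 without s01), 2 with only the 2 lines, 0 with these and without s18, 5 in glmTreat and 1 in the legacy test of the 2 lines. Contractile genes called lower were 4, and 2 to 5 with a library left out (2 without s02 or s18), 0 with only the 2 lines, with or without s18 and in the legacy test, and 1 in glmTreat. Extraembryonic endoderm genes called higher were 21, and 0 to 22 with a library left out (0 without s18, 1 without s01, 2 without s02), 0 with only the 2 lines, with or without s18 and in the legacy test, 0 in glmTreat, 9 without MBD2t, 2 with the 5 lines named above, 7 in voom with quality weights and 3 in voom without s18. Reversed values were those of *Spp2* (−0.304 without s18, −0.294 with only the 2 lines and without s18), *Afp* (−0.584 and −0.561) and *Apoc2* (−1.28 without s18). With a library left out, the highest log2 fold changes of these genes were 6.698, 8.481 and 6.119, each without WT library s03. Why these values moved was not tested, beyond the fewer libraries that the smaller fits hold. An exact permutation test of 3 against 3 libraries cannot go below p = 0.1, so none is given.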

Other observations

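Among the 88 genes called lower in MBD2aΔGR in every fit that leaves out 1 library, 18 belong to one of the lists. The others named below were chosen after their values were seen. *Cd93*, a surface receptor of endothelium, had 12.2, 12.2 and 8.45 CPM in WT and 1.29, 1.01 and 0.166 CPM in MBD2aΔGR. *Lama4*, the laminin chain of vessel basement membrane, had 12.3, 13.01 and 8.57 CPM in WT and 1.20, 2.02 and 0.831 CPM in MBD2aΔGR. *Plxnd1*, a semaphorin receptor, had 50.8, 54.5 and 38.0 CPM in WT and 11.7, 14.7 and 5.98 CPM in MBD2aΔGR. *Robo4*, *Pcdh12*, *Nos3*, *Esm1*, *Ecscr* and *Mmrn2*, which are also known from endothelium, had log2 fold changes of −3.41 to −1.83, and of −2.95 to −1.79 without s18.

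Further genes of the 88 had other known roles. *Scx*, a tendon factor, had 3.46, 2.64 and 2.53 CPM in WT and 0.676, 0.625 and 1.08 CPM in MBD2aΔGR. *Th*, the rate-limiting enzyme of catecholamine synthesis, had 7.59, 6.46 and 3.82 CPM in WT and 0.553, 0.238 and 0.554 CPM in MBD2aΔGR. *Wnt7b*, a secreted Wnt ligand, had 59.1, 58.6 and 39.0 CPM in WT and 14.6, 4.35 and 3.57 CPM in MBD2aΔGR. *Rgs4*, a regulator of G protein signalling that was also called in the fit of the 6 libraries alone, had 4.62, 4.35 and 2.56 CPM in WT and 0.154, 0.119 and 0.222 CPM in MBD2aΔGR.

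Among the 10 genes called higher in every such fit were 2 forebrain factors outside the rule for named genes. *Nr2e1*, a receptor of neural stem cells, had 0.456, 1.73 and 0.560 CPM in WT and 3.07, 2.83 and 3.46 CPM in MBD2aΔGR. *Otx1* had 0.0268 to 0.0550 CPM in WT, below the level of 3 counts, and 0.215, 0.387 and 0.305 CPM in MBD2aΔGR.

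The remaining lists gave few calls. Of the mesoderm genes 4 of 21 were called lower (*Tbx5*, *Kdr*, *Foxc2* and *Tcf15*), beside 2.47% of all genes. The count was 1 without s01, s02 or s18 and 2 without s17. *Kdr*, the VEGF receptor FLK1, had 16.4, 18.6 and 13.3 CPM in WT and 4.12, 3.84 and 1.30 CPM in MBD2aΔGR (edgeR adjusted p = 0.0166, and 0.114 without s18). Of 24 epithelial genes 2 were called higher, of 24 stress response genes 1, of 35 germline genes 1 and of 18 trophoblast genes none in the edgeR test, beside 2.69% of all genes. With a library left out these counts ranged from 0 to 6 (6 without s16), 0 to 8 (8 without s16), 0 to 7 (7 without s03) and 0 to 2 (2 without s16), each at 0 without s18. Over all genes tested, 920 of 16801 were called higher without s16 and 522 of 16793 without s03. The stress response list had a mean log2 CPM of 4.57 to 4.83 in WT and of 4.85 to 5.69 in MBD2aΔGR, highest in s18. Of 26 imprinted genes *H19* was called lower, and of 29 TGF-beta and CCN genes *Bmp7* was called lower and *Fst* higher. These single calls stand beside 2.47% of all genes called lower and 2.69% called higher. Of 15 NuRD subunits, *Mbd2* and *Mbd3* were the called genes.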
